A study of Mus musculus with 31 samples.

Results

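Flag cells without vitamin C are the mouse cells under reprogramming that carried the Flag virus and were kept with DMSO or DKG. They were chosen by library title, and day 8 was compared with day 3 with medium as a term, so no measured value entered the choice. They are 8 of the 31 libraries of the series, 4 of day 3 and 4 of day 8. All 8 came from cells of the strain 129/OG2 at passage 0 in which reprogramming was induced by OKSM, the factors Pou5f1 (Oct4), Klf4, Sox2 and Myc. Each day held 2 libraries with DMSO and 2 with DKG, and in each medium 1 library carried the number 0824 and 1 the number 0826. The labels give no dose, do not spell out DKG, and do not say what the numbers mark or which cells were infected. The series also holds Flag cells with vitamin C, cells with a Tet1CD virus in the same media, fibroblasts (MEF) and embryonic stem cells (ESC), used here only for comparison. The Flag virus is taken as the control of the Tet1CD virus.

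Reprogramming of fibroblasts by these factors is known to begin with the silencing of mesenchymal genes and the gain of epithelial ones, a mesenchymal-to-epithelial transition. The pluripotency network, which maintains itself in ESC, is known to be switched on later and in a minority of cells. Division is fast in the early phase, and genes of replication and mitosis are under the control of short promoter elements bound by E2F, NF-Y and MuvB complexes.

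The 8 libraries held 3953297 to 6673669 counts each. Levels are counts scaled to a common library size (CPM) and are not divided by gene length, so they are compared between libraries and not between genes. Values of 1 day are always given in the order DMSO 0824, DKG 0824, DMSO 0826, DKG 0826. Calls rest on an adjusted p below 0.05 in edgeR's quasi-likelihood test with Benjamini-Hochberg adjustment over 12791 genes, which is the source of every adjusted p below unless another is named. "Rose" and "fell" are used of called genes only. The labels do not say whether libraries stem from separate cultures, and the p-values therefore describe library-to-library spread, possibly technical. These are bulk samples, so a change in the share of cells of a type and a change in RNA per cell cannot be told apart.

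The main axis of variation separated the days and the next one separated the numbers. The first principal component held 49.6% of the variance and placed all 4 day 3 libraries below 0 and all 4 day 8 libraries above it. The second held 26.3%, with the 4 libraries 0824 above 0 and the 4 libraries 0826 below. DMSO and DKG libraries of 1 number and day deviated together, with a correlation of their 0824 minus 0826 differences across genes of 0.584 at day 3 and 0.752 at day 8. The 4 libraries of a day may therefore not count as 4 independent samples, and calls from a fit that takes this correlation as a random block (limma voom, estimated correlation 0.722, chosen after seeing the data) are given beside the main ones. What the number marks was not tested and cannot be told from the labels.

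From day 3 to day 8, 547 genes rose, 4.28% of those tested, and 367 fell, 2.87%. With the random block 139 rose and 49 fell, of which 135 and 49 were among the main calls. Without both 0826 libraries of day 3 the counts dropped to 9 and 1. At an unadjusted p under 0.05, 2952 genes differed in the main fit. The genes that rose included keratins, junction and laminin genes, and those that fell included genes of mitosis and replication. The median log2 fold change over all genes tested was 0.00395.

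**Figure D1:**
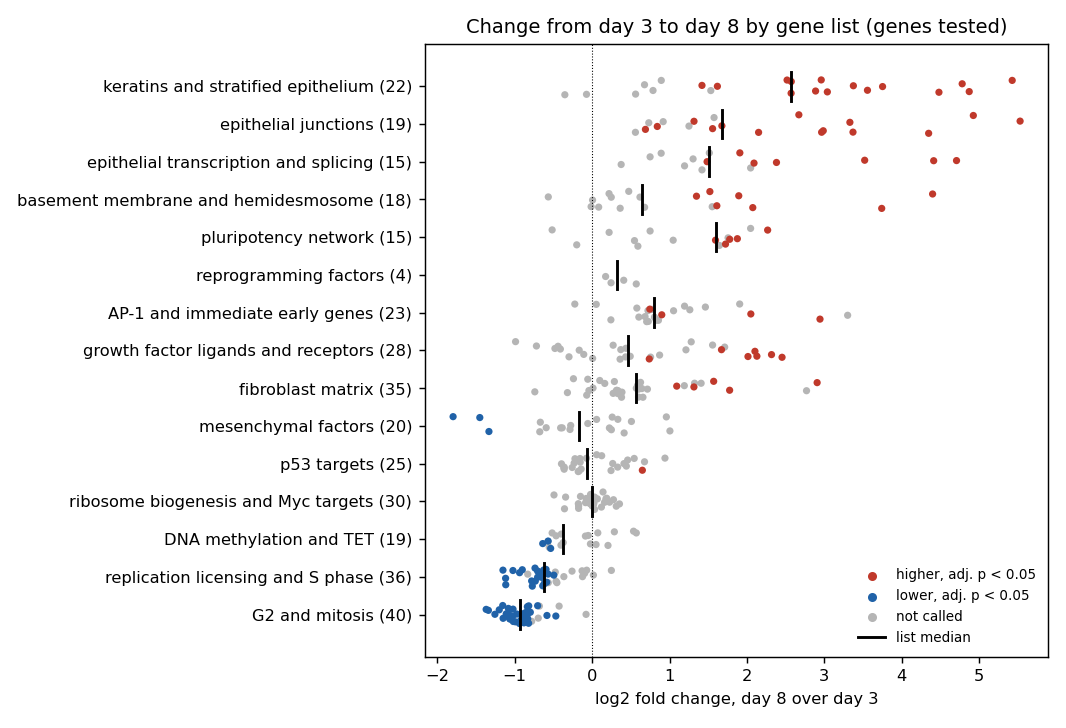
Log2 fold change from day 3 to day 8 (horizontal axis) of each gene tested in 15 gene lists, with the number of genes in brackets. Red points rose, blue points fell, grey points were not called, and black bars are list medians: the G2 and mitosis list lies wholly below 0 with a median of -0.929, and the keratin list has the highest median, 2.57.

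Genes of G2 and mitosis fell as a group. Of 40 listed genes, all tested, 35 fell and none rose, with a median log2 fold change of -0.93. The background is the 2.87% of all genes tested that fell. With the random block 17 of the 40 fell, and without both 0826 libraries of day 3 none passed. The median was -0.83 within the libraries 0824 and -1.12 within the libraries 0826.

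The mitotic kinase Plk1 had the largest decrease of the list. Its level was 88.8, 85.2, 106 and 100.1 CPM at day 3 and 44.0, 44.1, 30.7 and 27.6 CPM at day 8. It fell by 1.37 ± 0.18 on the log2 scale (SE, adjusted p = 0.00516), with every day 8 library below every day 3 library. Bub1b, a kinase of the spindle checkpoint, stood at 118, 122, 114 and 127 CPM at day 3. At day 8 it stood at 52.4, 62.1, 45.4 and 49.5 CPM, again with no overlap. The decrease was 1.20 ± 0.11 (adjusted p = 0.00261), and Bub1b also fell with the random block (adjusted p = 0.0162).

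Ccna2, the cyclin of S and G2 phase, went from 177, 172, 205 and 213 CPM to 85.5, 96.2, 77.6 and 97.6 CPM. It fell by 1.11 ± 0.12 (adjusted p = 0.00366), and the groups did not overlap. Birc5 (survivin, of the chromosomal passenger complex) fell by 1.08 ± 0.12 (adjusted p = 0.00369). Mki67, which encodes the proliferation marker Ki-67, fell from 544, 521, 587 and 544 CPM to 235, 281, 313 and 364 CPM, a decrease of 0.89 ± 0.14 (adjusted p = 0.00897). Kif2c and Ndc80, which act at kinetochores, fell by 1.34 and 1.26, and Cdk1, the kinase that drives entry into mitosis, by 0.58. The 5 members not called were Bub3, Cdc25b, Cdc25c, Foxm1 and Pttg1, at log2 fold changes of -0.08, -0.68, -0.78, -0.43 and -0.70.

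The replication and S phase list moved the same way with smaller decreases. Of 36 genes 21 fell and none rose (median -0.62), against 2.87% of all genes tested that fell, but with the random block only 2 fell. Chaf1a, the large subunit of the chromatin assembly factor, was at 61.0, 60.0, 65.2 and 69.8 CPM at day 3 and at 39.9, 39.2, 37.8 and 36.9 CPM at day 8. Its decrease was 0.73 ± 0.11 (adjusted p = 0.00837, and 0.0884 with the random block). Cdc6, which loads the MCM helicase, fell by 0.90 ± 0.14 (adjusted p = 0.00881). The ribonucleotide reductase subunit Rrm2 fell by 1.12 and the cyclins Ccne1 and Ccne2 by 1.12 and 1.15. Pcna, the sliding clamp of replication, was not called at -0.10 ± 0.11 (adjusted p = 0.648).

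Genes that maintain DNA methylation at replication were among those that fell. Dnmt1, the maintenance methyltransferase, went from 298, 272, 284 and 275 CPM to 176, 188, 208 and 188 CPM, a decrease of 0.57 ± 0.09 (adjusted p = 0.0107). Its partner Uhrf1 fell by 0.64 ± 0.12 (adjusted p = 0.0172) and Kdm2b, a histone demethylase that binds unmethylated CpG, by 0.54 ± 0.13 (adjusted p = 0.0485). These were the 3 calls among 19 genes tested of the DNA methylation and TET list, and none of them passed with the random block. Dnmt1 and Uhrf1 are also in the replication and S phase list and are counted among its falling genes. Of all genes tested 2.87% fell. The dioxygenases Tet1, Tet2 and Tet3 were not called, at -0.55 ± 0.35, 0.57 ± 0.31 and 0.21 ± 0.12.

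The promoters of the mitotic genes that fell shared short elements, shown here because these genes moved together. RefSeq start sites (GRCm38.p6) were found for 30 of the 35 G2 and mitosis genes called, using the first start listed for a gene, and the window searched ran from 250 bases before to 50 bases after the start. The cell cycle homology region, TTTGAA on either strand, was present in 22 of the 30, 73.3%, against 18.1% of 27025 promoters and 11.6% of the promoters of the genes tested. Within the 250 bases before the start alone it was present in 9 of the 30, 30%, against 16.3% of all promoters, while the other matches, those of Plk1 and Bub1b among them, ended at or after the start. The NF-Y box, CCAAT on either strand, was present in 73.3% against 37.9% of all promoters. Of 16 S phase genes called, 4 (25%) held an E2F element (TTTGGCGC or TTTCGCGC, either strand), and 18.8% held TTTGAA. An E2F element was present in 0.833% of all promoters and in 1.54% of those of genes tested. Among these S phase genes only Mcm5 held it within the bases before the start, and the other E2F matches ended at or after the start. A match of letters is a description and not a binding site.
The sequences printed are the 250 bases before the start in the gene's direction, with matches to these elements in capitals. They are Cdc20 (activator of the anaphase-promoting complex, chr4:118437344-118437593, minus strand), Cdk1 (chr10:69352913-69353162, minus strand), Top2a (topoisomerase II, chr11:99024190-99024439, minus strand), Kif11 (spindle motor, chr19:37376132-37376381, plus strand) and the helicase gene Mcm5 (chr8:75109259-75109508, plus strand).
Cdc20: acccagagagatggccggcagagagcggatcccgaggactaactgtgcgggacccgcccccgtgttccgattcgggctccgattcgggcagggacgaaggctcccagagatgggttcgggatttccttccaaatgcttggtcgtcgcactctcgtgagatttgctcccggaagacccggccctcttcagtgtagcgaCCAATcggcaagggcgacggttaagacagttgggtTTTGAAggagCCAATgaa
Cdk1: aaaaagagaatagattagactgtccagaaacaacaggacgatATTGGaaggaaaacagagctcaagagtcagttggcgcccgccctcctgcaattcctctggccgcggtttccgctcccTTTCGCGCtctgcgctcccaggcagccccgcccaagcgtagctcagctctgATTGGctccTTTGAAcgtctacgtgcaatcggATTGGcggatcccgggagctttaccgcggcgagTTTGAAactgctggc
Top2a: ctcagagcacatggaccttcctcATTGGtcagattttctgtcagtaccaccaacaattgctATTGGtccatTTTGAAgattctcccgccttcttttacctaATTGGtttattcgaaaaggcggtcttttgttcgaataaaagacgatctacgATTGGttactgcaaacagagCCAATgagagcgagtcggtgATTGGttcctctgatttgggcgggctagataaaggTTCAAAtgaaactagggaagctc
Kif11: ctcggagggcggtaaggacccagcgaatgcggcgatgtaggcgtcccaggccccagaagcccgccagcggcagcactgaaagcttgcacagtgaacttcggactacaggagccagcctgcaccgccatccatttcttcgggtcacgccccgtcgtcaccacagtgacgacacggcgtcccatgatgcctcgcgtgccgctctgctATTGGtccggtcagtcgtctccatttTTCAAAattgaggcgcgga
Mcm5: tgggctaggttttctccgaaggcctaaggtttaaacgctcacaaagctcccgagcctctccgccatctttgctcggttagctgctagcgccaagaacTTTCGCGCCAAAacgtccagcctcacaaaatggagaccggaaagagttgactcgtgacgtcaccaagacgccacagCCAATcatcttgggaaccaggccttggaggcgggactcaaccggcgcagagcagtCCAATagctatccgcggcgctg
Cdc20, Cdk1, Top2a and Kif11 each held both TTTGAA (or its complement TTCAAA) and CCAAT (or ATTGG), with the TTTGAA or TTCAAA match nearest to the start beginning 18, 15, 23 and 19 bases before it. Mcm5 held overlapping E2F matches on both strands and CCAAT boxes but no TTTGAA in the printed bases.

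Epithelial genes rose. Of 19 junction genes tested 14 rose, of 15 epithelial transcription and splicing genes 7, and of 22 keratin and stratified epithelium genes 15, and none of these fell. The medians were 1.68, 1.51 and 2.57, and the background is the 4.28% of all genes that rose. With the random block 4, 2 and 6 rose. The lists had 26, 21 and 35 members, and the others were too low to be tested. A gene near 0 at day 3 could pass the filter on low counts only by being high at day 8, so these counts and medians describe the genes tested and not the whole lists.

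**Figure D2:**
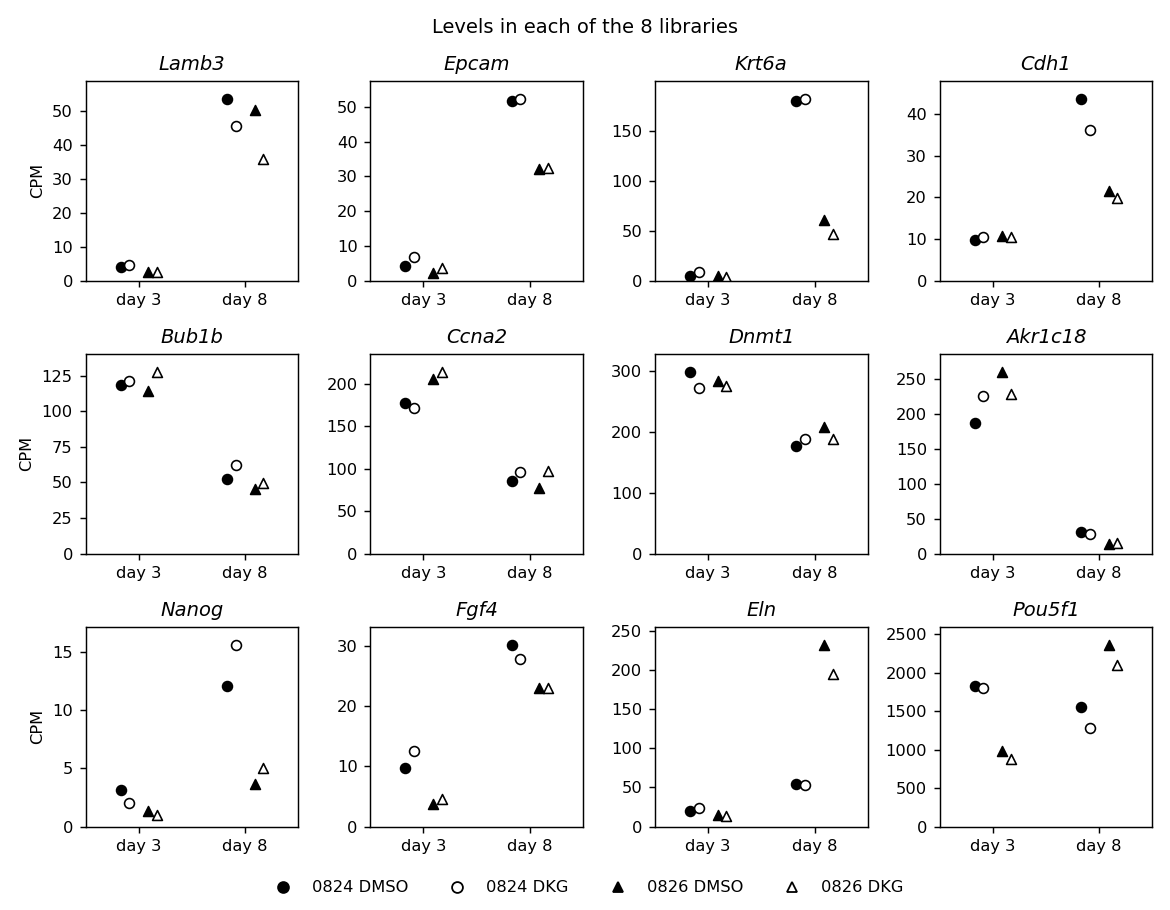
Level in CPM (vertical axis, from 0) of 12 genes in each of the 8 libraries at day 3 and day 8, with circles for number 0824, triangles for 0826, filled for DMSO and open for DKG. Lamb3 to Akr1c18 separate by day in both numbers, Epcam, Krt6a and Cdh1 are higher in 0824 at day 8, Eln is higher in 0826, and Pou5f1 crosses.

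Epcam, an adhesion molecule of epithelia and of ESC, was at 4.17, 6.82, 2.05 and 3.57 CPM at day 3 and at 51.8, 52.2, 32.0 and 32.4 CPM at day 8. It rose by 3.37 ± 0.34 on the log2 scale (adjusted p = 0.00326), and with the random block too (adjusted p = 0.0191). Cdh1 (E-cadherin), the main adhesion protein of epithelial junctions, was at 9.67, 10.5, 10.6 and 10.5 CPM at day 3 and at 43.6, 36.2, 21.5 and 19.8 CPM at day 8. All day 8 libraries lay above all day 3 libraries, and the libraries 0824 stood higher than the libraries 0826 at day 8. The increase was 1.56 ± 0.28 (adjusted p = 0.0139, and 0.0574 with the random block). Among tight junction genes, Cldn7 rose by 5.53 ± 0.72, Cldn4 by 4.92 ± 0.53 and Ocln by 4.35 ± 0.93, each from day 3 levels under 1 CPM. The desmosomal cadherin Dsg2 rose by 3.33 ± 0.41 (adjusted p = 0.00453), while its plaque partner Dsp was at 1.25 ± 0.35 (adjusted p = 0.0666) and not called.

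Some regulators of the epithelial state rose, and others were too low to be tested. Esrp1, which sets epithelial splicing, rose from 0.167, 0.413, 0 and 0.594 CPM to 12.95, 10.7, 4.20 and 3.48 CPM, by 4.71 ± 0.74 (adjusted p = 0.0091, and 0.14 with the random block). Grhl1, a transcription factor of surface epithelia, rose by 1.49 ± 0.35. Grhl2 was too low to be tested, at 0 in all day 3 libraries and at 2.50, 1.78, 0.787 and 0.268 CPM at day 8. The membrane protease St14 (matriptase) rose by 2.38 ± 0.34 (adjusted p = 0.00704) and its inhibitor Spint1 by 3.52 ± 0.72 (adjusted p = 0.0237).

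Keratins of simple and of stratified epithelium rose side by side. Krt8, of simple epithelium, went from 17.8, 14.5, 5.03 and 9.31 CPM to 116, 128, 56.1 and 45.5 CPM, an increase of 2.89 ± 0.46 (adjusted p = 0.00995). Krt6a, known from activated epidermis, went from 4.50, 8.06, 4.85 and 3.77 CPM to 179, 182, 60.8 and 46.3 CPM, an increase of 4.48 ± 0.55 (adjusted p = 0.00453). In both genes the day 8 libraries 0824 were above the day 8 libraries 0826, and no day 3 library reached any day 8 library. Krt17, Krt14 and Sprr1a, a protein of the cornified envelope, rose by 5.43, 2.57 and 4.87. With the random block Krt17, which is not in the keratinocyte marker list, was not called (adjusted p = 0.167). Of the 9 keratinocyte markers that passed the filter on low counts 7 rose, and 5 with the random block. The filter limits this count as it does those of the epithelial lists. The summed level of all 14 markers was 145 to 194 CPM at day 3 and 348 to 922 CPM at day 8, against 14.9 to 15.9 CPM in MEF. Krt5, a defining keratin of basal keratinocytes, was too low to be tested, at 0, 0, 0.373 and 0.396 CPM at day 3 and 3.53, 3.76, 2.10 and 1.34 CPM at day 8. Whether keratinocytes contributed was not tested. Reads of keratin genes with near-identical copies were shared out by RSEM, so values of Krt6a, Krt6b, Krt14, Krt16 and Krt17 are uncertain against each other.

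Genes of some laminin chains rose. Lamb3 (chr1:193207699-193343878, mm10), which encodes a chain of the basement membrane laminin that anchors epithelia, was at 3.999, 4.55, 2.61 and 2.58 CPM at day 3 and at 53.6, 45.5, 50.3 and 35.8 CPM at day 8. It rose by 3.74 ± 0.24 (adjusted p = 0.000593), to 35.8 to 53.6 CPM across both numbers and both media. Lama3, another chain of this laminin, rose by 1.89 ± 0.18 (adjusted p = 0.00261), and Lama5, a chain of other laminins, by 1.61 ± 0.13 (adjusted p = 0.00132). Lamb1, Lamc1 and Lama1, chains of other laminins, were not called, at -0.57 ± 0.25, 0.25 ± 0.15 and 0.08 ± 0.49. Lamb1 was at 144, 151, 256 and 255 CPM at day 3 and at 113, 107, 170.2 and 156 CPM at day 8, lower in both numbers, while Lama1 was higher at day 8 in the libraries 0824 and lower in the libraries 0826. The laminin receptor subunits Itgb4 and Itga3 rose by 1.35 ± 0.28 and 1.52 ± 0.32 and Col17a1, a collagen of hemidesmosomes, by 4.40 ± 0.55, while the receptor subunit Itga6 was at 0.01 ± 0.24 and not called. In all 7 of 18 basement membrane genes rose (median 0.65), the same number rose with the random block, and 3 without both 0826 libraries of day 3. Of all genes tested 4.28% rose in the main fit.

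Of 43 called genes of the epithelial, keratin and basement membrane lists, 25 had a promoter in the RefSeq table, and 5 of these, 20%, held an AP-1 element (TGAGTCA or its complement TGACTCA), against 5.17% of all promoters and 3.33% of those of genes tested. Those of Cldn4 (chr5:134946935-134947184, minus strand) and of Lsr, a protein of tricellular junctions (chr7:30973470-30973719, minus strand), are printed as examples of this smaller share, with the AP-1 letters in capitals.
Cldn4: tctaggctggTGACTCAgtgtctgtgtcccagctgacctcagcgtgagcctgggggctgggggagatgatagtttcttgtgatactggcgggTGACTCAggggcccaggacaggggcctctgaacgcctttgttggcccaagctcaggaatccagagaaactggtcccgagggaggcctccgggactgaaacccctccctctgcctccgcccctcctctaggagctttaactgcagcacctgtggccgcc
Lsr: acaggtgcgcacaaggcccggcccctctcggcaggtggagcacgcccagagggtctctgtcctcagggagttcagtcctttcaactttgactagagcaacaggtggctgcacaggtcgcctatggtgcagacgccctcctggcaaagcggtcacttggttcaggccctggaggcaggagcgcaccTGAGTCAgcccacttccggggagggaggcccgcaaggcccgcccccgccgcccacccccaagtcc
Cldn4 held 2 matches and Lsr 1. The genes of AP-1 subunits and other immediate early genes had a median of 0.81, with 4 of 23 rising (Dusp5, Dusp6, Egr3 and Spry4) and none with the random block. Of all genes tested 4.28% rose in the main fit. Fosl1 was at 46.3, 49.8, 67.3 and 53.5 CPM at day 3 and at 46.9, 48.1, 158 and 142 CPM at day 8, so that it was high in the day 8 libraries 0826 alone. The list's median was 0.08 within the libraries 0824 and 1.42 within 0826.

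Mesenchymal genes were split. Of 20 mesenchymal factors 3 fell and none rose, and 2 fell with the random block. The background is the 2.87% of all genes tested that fell and the 4.28% that rose. Snai2, a repressor of Cdh1, fell from 5.67, 8.68, 12.3 and 18.2 CPM to 2.50, 2.18, 3.41 and 4.82 CPM, by 1.80 ± 0.40 (adjusted p = 0.0321, and 0.195 with the random block). Cdh2 (N-cadherin) fell by 1.45 ± 0.30 (adjusted p = 0.0249) and S100a4, a calcium-binding protein of fibroblasts, by 1.33 ± 0.25 (adjusted p = 0.0163). Zeb1, Twist1 and Vim were not called, at -0.29 ± 0.12, -0.06 ± 0.15 and -0.28 ± 0.14.

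Of 35 genes tested of the fibroblast matrix list 5 rose and none fell, with a median of 0.57, and 2 rose with the random block. Of all genes tested 4.28% rose and 2.87% fell, so the absence of falling genes is near the share over all genes. Col6a3, a chain of collagen VI, rose from 129, 121, 149 and 165 CPM to 312, 339, 667 and 613 CPM, by 1.78 ± 0.27 (adjusted p = 0.00837). Eln (elastin) rose from 19.3, 23.2, 14.4 and 13.9 CPM to 54.3, 53.03, 232 and 195 CPM, by 2.91 ± 0.54 (adjusted p = 0.016, and 0.0547 with the random block). Both were highest in the day 8 libraries 0826, the reverse of Krt6a and Cdh1. The most abundant of the list in MEF, Col1a1, was at 802, 864, 1548 and 1529 CPM at day 3 and 974, 992, 2250 and 1710 CPM at day 8 (0.31 ± 0.33, adjusted p = 0.616). In MEF it was at 14500 and 15490 CPM.

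Few pluripotency genes were on. Of 38 listed genes 15 were tested, 5 rose and none fell (median 1.59), and 3 rose with the random block. The background is the 4.28% of all genes tested that rose. A gene near 0 at day 3 could pass the filter on low counts only by being high at day 8. The counts and the median therefore describe the genes tested and not the whole list. Nanog, a core factor of the network, went from 3.17, 2.07, 1.30 and 0.991 CPM to 12.1, 15.6, 3.67 and 5.08 CPM, by 2.27 ± 0.56 (adjusted p = 0.0457, and 0.234 with the random block). Tfcp2l1, a factor of naive pluripotency, went from 5.67, 5.38, 3.73 and 6.14 CPM to 17.8, 18.4, 18.1 and 22.7 CPM, by 1.88 ± 0.20 (adjusted p = 0.00369). Fgf4 rose by 1.78 ± 0.37, Fbxo15 by 1.72 ± 0.29 and L1td1 by 1.59 ± 0.37. In ESC, Nanog was at 544 and 670 CPM and Tfcp2l1 at 811 and 1076 CPM. Lin28a, Sall4 and Esrrb were too low to be tested; Sall4 was at 8.68, 11.3, 0.787 and 0.803 CPM at day 8. The summed level of the 8 markers of pluripotent cells was 4.66 to 9.51 CPM at day 3 and 15.7 to 34.6 CPM at day 8, against 2458 to 3592 CPM in ESC.

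The 4 reprogramming factors went opposite ways in the numbers. Pou5f1 was at 1829, 1803, 981 and 873 CPM at day 3 and at 1553, 1279, 2361 and 2107 CPM at day 8. It was thus lower at day 8 in the libraries 0824 and higher in the libraries 0826, and so were Sox2, Klf4 and Myc. None was called, at 0.41 ± 0.29 for Pou5f1 (adjusted p = 0.445), 0.17 ± 0.37 for Sox2, 0.57 ± 0.39 for Klf4 and 0.24 ± 0.32 for Myc. Introduced and endogenous transcripts of the factors are counted together. The part of factor level in the differences between numbers was not tested.

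**Figure D3:**
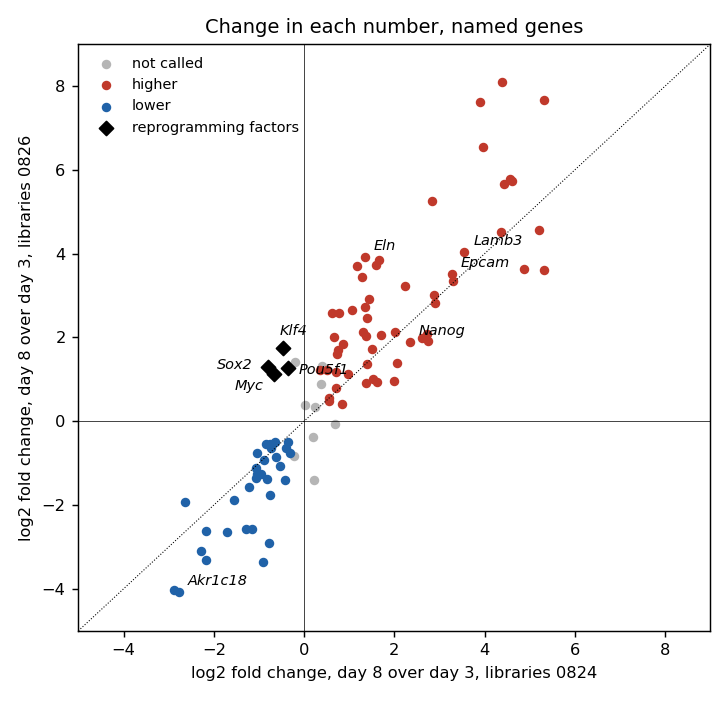
Log2 fold change from day 3 to day 8 of the named genes within the libraries 0824 (horizontal axis) and within the libraries 0826 (vertical axis), with the dotted line at equality. Called genes lie on the same side of 0 in both numbers, while the 4 reprogramming factors (black diamonds) lie below 0 in 0824 and above it in 0826.

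Across 12324 genes tested in both numbers, the change in 0824 and that in 0826 had a Pearson correlation of 0.476, a description across genes, which are not independent. All 508 rising and 367 falling genes tested in both had the same sign in each number, which the choice of called genes itself favours.

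The single genes with the largest changes were of varied kinds. Serpinb3a, a serine protease inhibitor of epithelia with near-identical copies, had 0 counts in all 4 day 3 libraries and 13.1, 18.4, 2.88 and 6.15 CPM at day 8. It was at least 78.9-fold higher at day 8, taking 3 counts over the 4 day 3 libraries as the upper limit of a count of 0. Klk1, tissue kallikrein, rose from 7.67, 6.41, 0.373 and 0.991 CPM to 98.0, 115, 148 and 128 CPM, by 4.96 ± 0.59 (adjusted p = 0.00453).

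Among genes that fell, Akr1c18 (chr13:4132615-4150654), which degrades progesterone, went from 187, 226, 260 and 229 CPM to 31.5, 27.5, 13.9 and 15.0 CPM. It fell by 3.33 ± 0.28 (adjusted p = 0.00166), and with the random block too (adjusted p = 0.00225). Its level in MEF was 0.451 and 1.06 CPM, so day 3 stood far above both MEF and day 8. Epha1, an ephrin receptor, fell from 84.3, 98.4, 142 and 130 CPM to 18.5, 22.0, 23.1 and 21.1 CPM, by 2.43 ± 0.19 (adjusted p = 0.00132), and in MEF it was at 12.2 and 12.8 CPM. Pcdh10, a protocadherin, fell by 1.89 ± 0.25 (adjusted p = 0.00534), and its day 3 levels of 88.7 to 136 CPM stood above 12.9 and 17.9 CPM in MEF.

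Against MEF and ESC, the change had no single direction. In a fit of 2 ESC and 2 MEF libraries, 10.6% of 13440 genes were called higher in ESC and 4.52% lower. Of the 410 rising genes tested there, 22.7% were higher in ESC and 5.37% lower, and of the 355 falling genes 33% were higher in ESC and 4.51% lower, beside 8.49% and 4.79% of all 12098 genes tested in both fits. The ESC libraries differed from each other, with Col1a1 at 4589 CPM in one and 31.3 CPM in the other, so fibroblast genes in ESC are given per library. Such a spread makes genes lower in ESC hard to call, and the shares lower in ESC may be too low. Eln, which rose, and S100a4, which fell, were at -3.04 and -3.13 in ESC against MEF. Neither was called in that fit (adjusted p = 0.231 and 0.254, edgeR). Bub1b was at 40.6 and 54.2 CPM in MEF, near its day 8 levels, and at 207 and 136 CPM in ESC. Lamb3 and Krt6a at day 8 were above all MEF and ESC libraries. Cdh1 and Epcam at day 8 were between MEF and ESC.

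**Figure D4:**
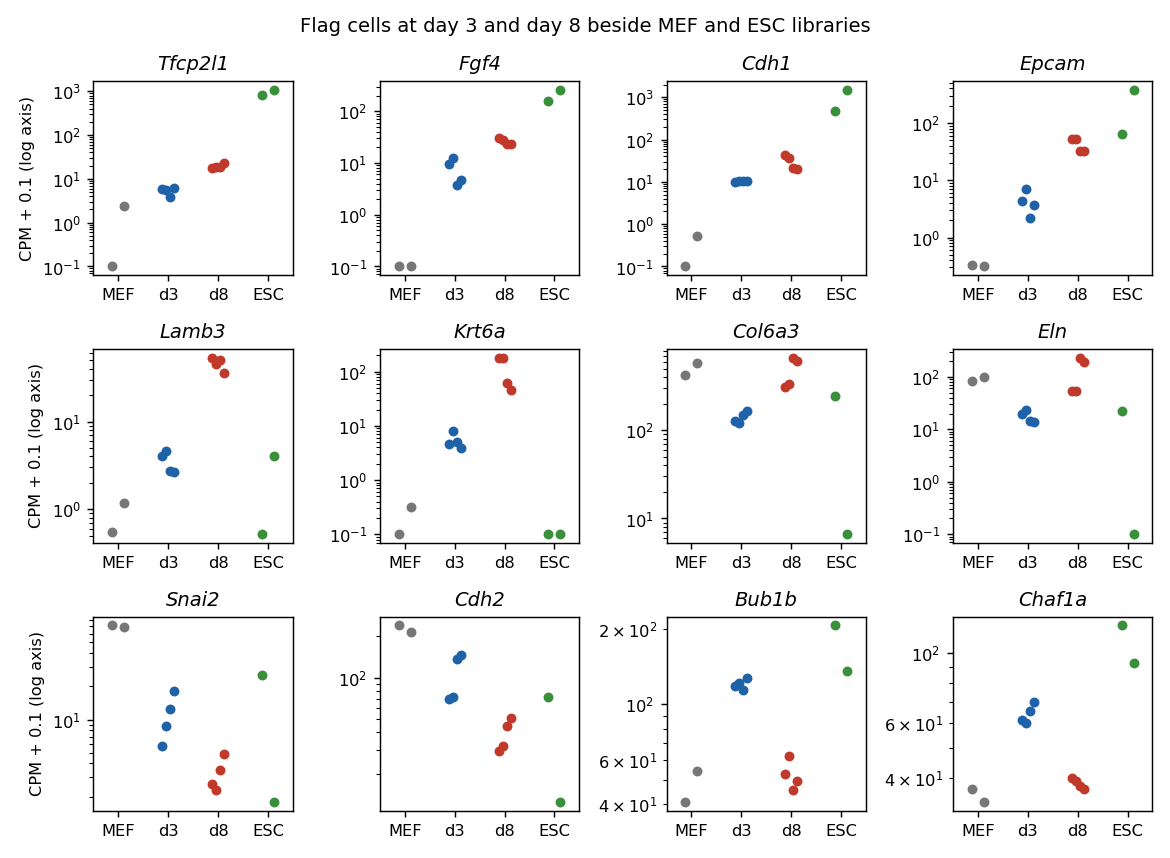
Level (CPM plus 0.1, log axis) of 12 genes in 2 MEF, 4 day 3, 4 day 8 and 2 ESC libraries, 1 point a library. Tfcp2l1, Fgf4, Cdh1 and Epcam step up from MEF to ESC, Lamb3 and Krt6a are highest at day 8, and Bub1b and Chaf1a are near the MEF level at day 8.

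No difference of the day effect between media was called. Of 13238 genes 0 (0%) had a different day effect in DKG and in DMSO by edgeR's quasi-likelihood test, 35 at an unadjusted p under 0.05, and 1 by DESeq2. Without filtering, 12 were called. The G2 and mitosis list had a median of -1.03 in DMSO and -0.82 in DKG, and the keratin list 2.73 and 2.32. With 2 libraries in each group, this does not show that the media act alike.

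Most genes called without vitamin C had the same sign of change with it. In Flag cells with vitamin C, of 14015 genes tested, 1.94% rose and 1.36% fell. Of the 547 genes that rose without vitamin C, 545 were also higher at day 8 with it and 198 were called there, and of the 367 that fell, 365 were lower and 136 called. The difference of the day effect was called for 0 of 14015 genes (0%), with 161 at an unadjusted p under 0.05 and 0 by DESeq2. Cdh1 had a log2 fold change of 3.08 with vitamin C against 1.56 without, a difference that was not called.

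Tet1CD cells without vitamin C differed from Flag cells in a few cell cycle genes. In these cells 3.55% of genes rose and 1.29% fell. The genes that rose in Flag cells had a median of 1.34 in Tet1CD cells against 1.79, and 542 of 547 were higher at day 8. Those that fell had a median of -0.40 against -0.88, and 340 of 367 were lower. The Flag medians come from the fit of 8 libraries that chose these genes, which itself favours larger changes there, and no test rests on them. The difference of the day effect was called for 5 of 14015 genes, 0.0357%, with 575 at an unadjusted p under 0.05 and 61 by DESeq2. It comes from a fit of all 24 Flag and Tet1CD libraries, which counts DMSO and DKG libraries of 1 number as separate samples. No random block is given for it here, so its adjusted p-values may be too low. All 5, Top2a, Kif11, Melk, Atad2 and Shcbp1, are known from dividing cells and had lower values of the day effect in Flag cells. The count was 1 to 9 when 1 library was left out. It was 1 without the DMSO 0824 library of Tet1CD cells at day 3, 2 without their DKG 0824 library and 3 without their DMSO 0826 or DKG 0826 library of that day. Among Flag libraries it was 2 without DKG 0826 of day 3, 3 without DKG 0824 of day 8, and 8 and 9 without DMSO 0826 and DKG 0826 of day 8.

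Top2a, which untangles DNA before mitosis, ranged from 408 to 450.0 CPM in Flag cells at day 3 and from 196 to 291 CPM at day 8. In Tet1CD cells it ranged from 377 to 409 CPM at day 3 and from 406 to 436 CPM at day 8. Its difference of day effects was -0.94 ± 0.10 (adjusted p = 0.00143). Kif11 was at 132 to 142 CPM in Flag cells at day 3 and 65.6 to 91.8 CPM at day 8, and at 119 to 134 and 119 to 139 CPM in Tet1CD cells. Its difference was -0.85 ± 0.11 (adjusted p = 0.0105), and the promoters of both genes are among those printed above.

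Over the whole G2 and mitosis list the median in the fit of all 24 libraries was -0.94 in Flag cells, -0.24 in Tet1CD cells and -0.93 in Flag cells with vitamin C. In that fit 38 of the 40 genes fell in Flag cells and 3 in Tet1CD cells, and the difference was negative for all 40 but called for 2. The background in that fit, here and for the replication genes, is 606 of 14015 genes that fell in Flag cells and 181 in Tet1CD cells. For the 36 replication genes the medians were -0.64, -0.06 and -0.59, with 28 falling in Flag cells and 0 in Tet1CD cells, and the difference was called for none. For the 19 epithelial junction genes the median difference in that fit, Flag minus Tet1CD cells, was 0.29, with lower values in Flag cells for 3 genes, and the difference was called for none. A shift to lower values in Flag cells was not particular to cell cycle lists. For the 22 interferon genes tested the median difference was -0.615, with lower values in Flag cells for all 22 and none called. Over the 12791 genes of the main fit it was 0.0123, with lower values in Flag cells for 6138.

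**Figure D5:**
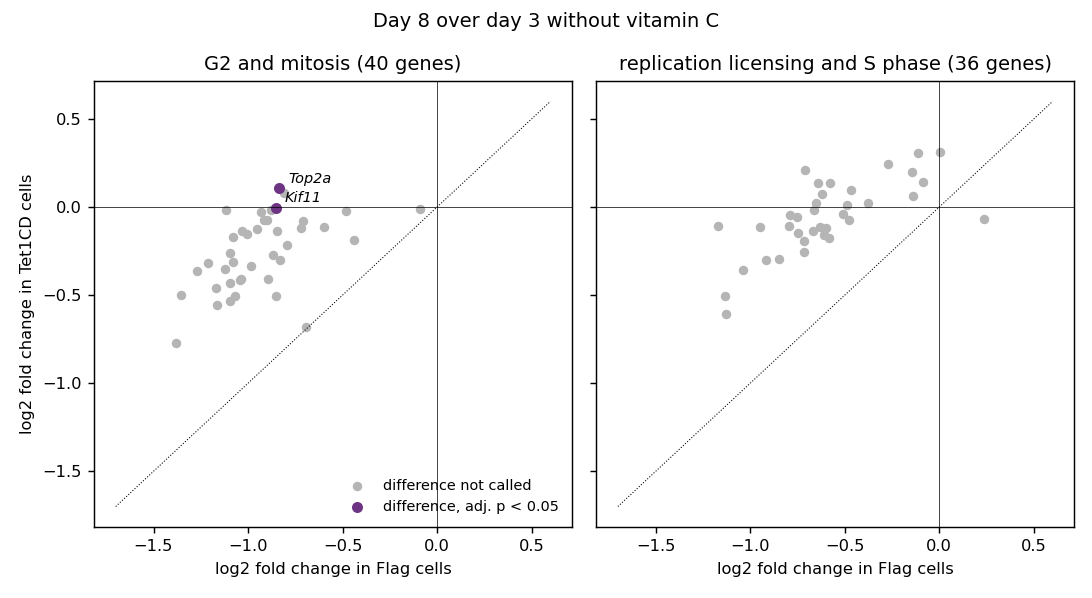
Log2 fold change from day 3 to day 8 without vitamin C in Flag cells (horizontal axis) and in Tet1CD cells (vertical axis) for genes of the G2 and mitosis list (left) and the replication list (right), with the dotted line at equality. Points lie above the line for all 40 and for 35 of 36 genes, and the difference passed the test for Top2a and Kif11 (purple).

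Most calls in the other lists described here were lost with the random block. The background for their counts is the 4.28% of all genes tested that rose and the 2.87% that fell. None of 30 ribosome biogenesis and Myc target genes was called, with a median of -0.01, and 1 of 25 p53 targets rose, near the 4.28% of all genes that rose. It was Btg2, an antiproliferative factor, at 0.65 ± 0.16 (adjusted p = 0.0408, and 0.167 with the random block). The cell cycle inhibitors Cdkn1a and Cdkn2a were not called, at 0.33 ± 0.17 and 0.48 ± 0.32, while Cdkn1c, an imprinted inhibitor, rose by 1.85 ± 0.45 (adjusted p = 0.0435, and 0.173 with the random block). Among 28 growth factor ligands and receptors 7 rose (Areg, Erbb3, Fgfr1, Igfbp2, Kit, Pdgfb and Ret), and 1 with the random block. Erbb3, a receptor for neuregulins, rose by 2.45 ± 0.41 (adjusted p = 0.0114, and 0.059 with the random block). Of 22 interferon genes 4 rose (Gbp2, H2-K1, Igtp and Parp14) and 1 fell (Ifit2), and none was called with the random block. A fall of 1 of 22 is near the share over all genes. Of 25 TGF-beta and BMP genes 2 rose, the ligand Bmp2 by 2.83 ± 0.48 (adjusted p = 0.0117, and 0.0706 with the random block) and the target gene Id1, and neither was called with the random block. Of 21 imprinted genes 3 rose and 3 fell, and 1 of each with the random block.

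Markers of other cell types were at varied levels. The summed level of 13 macrophage and blood markers was 19.0 to 25.2 CPM at day 3 and 28.3 to 40.1 CPM at day 8, against 625 to 3022 CPM in MEF, and Laptm5 of these rose by 1.35 ± 0.24 (adjusted p = 0.0142). The 10 fibroblast markers summed to 3530 to 5053 CPM at day 3 and 3171 to 6759 CPM at day 8, against 30950 to 32940 CPM in MEF. The 11 endothelial markers summed to 76.2 to 86.0 CPM at day 3 and 109 to 126 CPM at day 8, above the 27.1 to 32.1 CPM of MEF. Most of this sum was Tek, an angiopoietin receptor, at 81.3, 79.6, 69.9 and 72.3 CPM at day 3 and 117, 118, 100.4 and 110.2 CPM at day 8. In MEF Tek was at 0.676 and 1.06 CPM, and the other endothelial markers together stood lower in these cells than in MEF. Tek rose by 0.56 ± 0.11 (adjusted p = 0.0172), and neither Tek nor Laptm5 was called with the random block. The 10 chondrocyte and bone markers summed to 92.0 to 111 CPM at day 3 and 140.1 to 246.5 CPM at day 8, and none of the 4 tested was called, 1 with the random block. The 12 neural markers summed to 264 to 507 CPM at day 3 and 305 to 337 CPM at day 8, beside 294 to 362 CPM in MEF. The part of such cells in the results was not tested. The 11 skeletal and heart muscle markers summed to 53.3 to 84.0 CPM at day 3 and 45.3 to 55.2 CPM at day 8. In MEF they summed to 254 to 307 CPM. Myod1, Myog, Myf5, Myf6 and Ckm of these had 0 counts in all 8 libraries. Of 4 tested, Tnnt2 rose by 1.05 ± 0.24 (adjusted p = 0.035) and Mef2c fell by 0.90 ± 0.22 (adjusted p = 0.0433). Neither was called with the random block. Of 6 neural markers tested 3 rose, Sox1 by 2.53 and Mbp by 1.29 among them, and none did with the random block. The background for the muscle and neural counts is the 4.28% of all genes tested that rose and the 2.87% that fell. The filter on low counts limits these counts too.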

How the data were processed

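Total RNA was harvested with Trizol and turned into TruSeq RNA libraries, per the labels' protocols. Bowtie, RSEM and mm10 are named, per the submitters' processing notes, without versions or annotation (not given in the sources used here). The authors deposited RSEM gene tables, which per the file headers hold an expected count and a TPM per gene. RSEM shares reads matching several genes among them, and the kit as named does not mark strand, so overlapping and antisense genes cannot be told apart.

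Expected counts were rounded to whole numbers. Of 29267 gene identifiers 28756 matched GENCODE mouse release M21, which gave symbols and mm10 coordinates, and the others held at most 0.359% of a library's counts. Tests were made with edgeR's quasi-likelihood method, two-sided (edgeR 4.0.16, limma 3.58.1, R 4.3.3), on genes passing filterByExpr, with TMM factors, medium and day as terms and Benjamini-Hochberg adjustment. DESeq2 (1.42.0) and limma on log2(TPM + 1) were alternatives. CPM use TMM-scaled totals. The upper 95% limit of a count of 0 (3 counts) is at most 0.802 CPM per library and, like other limits here, covers counting error only. Differences from Flag cells with vitamin C and Tet1CD cells used a fit of 24 libraries.

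The 108 named genes are, among called genes without overlap, with at least 5 CPM on the higher day and no predicted symbol, the 12 largest in each direction, plus up to 3 lowest adjusted p in each list and a fixed set of factors. Other list members and the genes of the Tet1CD difference were named after their values were seen. Members and lists were chosen with earlier results of these data known. Some named genes are not reported here. Scripts were tested on simulated data.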

Additional observations from a re-analysis of the deposited data

Results flagged for a closer look

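Over the 108 named genes, 216 groups of 4 libraries were examined for a library far from the other 3, and 9 were found. Chance flags about 1 in 20 groups, so this number is not above what chance gives. At day 3 the DMSO 0824 library stood apart for Lmnb1 (228 CPM against 206.1 to 209.4 CPM), Tet3 (123.8 CPM against 96.3 to 99.64 CPM), Cdh1 (9.665 CPM against 10.5 to 10.62 CPM) and Sall4 (0.3333 CPM against 0 CPM). At day 8 the same number and medium stood apart for Fbxo15 (7.358 CPM against 10.88 to 11.23 CPM) and Dusp6 (75.79 CPM against 66.61 to 68.17 CPM). DKG 0826 stood apart for Tfcp2l1 at day 8 (22.74 CPM against 17.81 to 18.4 CPM) and Lin28a at day 3 (0.1981 CPM against 0 CPM). DKG 0824 stood apart for Tcerg1l at day 3 (0.4134 CPM against 0 CPM). The Lin28a value is 1 count and the Tcerg1l value 2 counts. Both, and that of Sall4, lie below the upper limit of a count of 0.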

How the results depend on the processing

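The calls rest on few independent samples. The 547 rising and 367 falling genes of the main fit became 549 and 367 with RLE factors, 971 and 627 with DESeq2, 1265 and 682 without a filter, 412 and 328 with limma on TPM, 763 and 522 without the medium term and 764 and 606 in the fit of 24 libraries. Leaving out 1 library gave 163 to 636 and 94 to 324, lowest without the DMSO 0826 library of day 3 (163 and 94) or the DKG 0826 library of day 3 (175 and 100), and over 1.5 times below the main count in 1 or both directions also without DMSO 0824 or DKG 0824 of day 3 (345 and 215, 355 and 235) and DMSO 0826 or DKG 0826 of day 8 (408 and 237, 363 and 222). DMSO alone, DKG alone and both media summed per number gave 0 and 0 (1253, 1152 and 1410 genes at an unadjusted p under 0.05). The libraries 0824 alone gave 2017 and 1928, and 0826 alone 3191 and 3095, where the media serve as replicates. In 0824 alone Pou5f1, Sox2, Klf4 and Myc were reversed at -0.366, -0.808, -0.462 and -0.669.

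Alternatives chosen after seeing the data were the random block (139 and 49), DESeq2 on summed counts (289 and 93), and leaving out both libraries of a number and day: 333 and 234 (0824, day 3), 9 and 1 (0826, day 3), 2001 and 1621 (0824, day 8), 686 and 568 (0826, day 8). Across days the correlations of the number differences were 0.0475 to 0.132, all positive but under 0.1 for the DKG libraries of day 3, so the numbers were not taken to pair the days, although the second component separated them on both. The replicate block gave 1079 and 818 calls, and 55 in place of 5 for the difference between Flag and Tet1CD cells, where DESeq2 gave 61 and leaving out 1 library 1 to 9. For the difference between media DESeq2 gave 1 and no filter 12. None of the main calls changed sign in any of these settings where tested. The cause of these changes was not tested.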

Other observations

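The following lists were chosen after values were seen. Some genes of peptide hormones and neuropeptides rose. Of 38 listed, 13 passed the filter on low counts, among them genes near 0 at day 3 such as Npy and Edn2, which passed only by being high at day 8, so no share or median is given. Npy, Tac2, Trh, Ucn3, Nppb, Prok2, Edn2 and Vgf rose and Edn1 fell, and 6 of the list rose with the random block. Tac2, the precursor of neurokinin B, went from 1.83, 1.24, 0.745 and 0.198 CPM to 32.5, 36.2, 28.8 and 22.2 CPM (4.86 ± 0.41, adjusted p = 0.00181, edgeR). Trh, the precursor of thyrotropin-releasing hormone, rose by 3.47 ± 0.76 (adjusted p = 0.0289). Its levels were 17.0, 15.7, 1.12 and 1.78 CPM at day 3 and 129, 157, 53.8 and 59.4 CPM at day 8, higher in the libraries 0824 on both days. In MEF it was at 0.225 and 0.213 CPM, and in ESC at 170.0 and 76.5 CPM.

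Repair and chromosome condensation genes followed the cell cycle lists. Of 37 homologous recombination and Fanconi genes tested 16 fell and none rose (median -0.71), and with the random block none fell. The background, here and for the next list, is the 2.87% of all genes tested that fell. Eme1, a subunit of a junction-cutting nuclease, fell by 1.55 ± 0.26 (adjusted p = 0.0115), and Brca1 by 0.85 ± 0.14 (adjusted p = 0.0111). Of 38 condensin and kinetochore genes 18 fell (median -0.77), and 4 with the random block. Ncapd2, a condensin subunit, went from 235, 214, 220.4 and 202 CPM to 119, 111, 112 and 108 CPM, a decrease of 0.96 ± 0.09 (adjusted p = 0.00261).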
